A study of Mus musculus with 24 samples.

Results

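The glycosyltransferases described here are 44 genes of 9 enzyme families that build the sugar chains of mucins and of the cell surface, out of 17811 genes in a table of mouse jejunal epithelium. Members were all genes whose symbol is Galnt, Gcnt, B3gnt, B3galt, B4galt, Fut, St3gal, St6gal or St6galnac followed by a number, a rule that uses the symbol alone. Of the 44 genes, 26 passed the filter on low counts and were tested, and 18 had too few transcripts. The symbol rule also takes in enzymes that act elsewhere than on mucins, among them Fut8 (N-linked chains), B4galt6 (glycolipids) and B4galt7 and B3galt6 (the linker of proteoglycans).

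Mucin-type chains are made in the Golgi apparatus, where a Galnt enzyme first places N-acetylgalactosamine on a serine or threonine. Galactose and branching N-acetylglucosamine follow, the latter through Gcnt enzymes, and B3gnt, B3galt and B4galt enzymes lengthen the chain. Fut and sialyltransferase enzymes cap it with fucose or sialic acid. In the small intestine such chains make up most of the mass of the mucins that goblet cells secrete, and they are part of the membrane-bound coat on enterocytes.

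Cells of the jejunal epithelium were taken from 4 C57BL/6 males that were 10 weeks old and on regular chow, and were sorted by surface CD73 and CD26 into 6 zones along the villus: V1 (most bottom), V2 (bottom), V3 (bottom-middle), V4 (middle), V5 (middle-tip) and V6 (tip). Every mouse gave 1 library to every zone, so each zone had 4 libraries, the 24 libraries shared strain, sex, age, diet and tissue, and no group was treated or mutant. The libraries were made with mcSCRB-seq, which reads the 3′ end of polyadenylated RNA and counts each molecule once by a unique molecular identifier (UMI). Library totals ranged from 806541 to 2266261 UMIs. Levels are given as CPM, that is UMI counts relative to each library's TMM-normalized size, which are not divided by transcript length because each molecule gives 1 tag.

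The promoters of 3 members that differed in direction along the villus are shown for orientation, as the 250 bases before a transcription start in RefSeq (GRCm38.p6). B3gnt3 (chr8:71701801-71702050, minus strand) and Galnt6 (its upstream start, chr15:100729377-100729626, minus strand) rose toward the tip, and Galnt7 (chr8:57653056-57653305, minus strand) fell. Capitals mark the GC box, GGGCGG on either strand.
B3gnt3: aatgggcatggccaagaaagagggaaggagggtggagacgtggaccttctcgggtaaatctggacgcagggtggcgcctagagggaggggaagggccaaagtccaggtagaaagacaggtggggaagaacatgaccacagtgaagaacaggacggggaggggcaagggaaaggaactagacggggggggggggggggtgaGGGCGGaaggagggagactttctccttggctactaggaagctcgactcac
Galnt6: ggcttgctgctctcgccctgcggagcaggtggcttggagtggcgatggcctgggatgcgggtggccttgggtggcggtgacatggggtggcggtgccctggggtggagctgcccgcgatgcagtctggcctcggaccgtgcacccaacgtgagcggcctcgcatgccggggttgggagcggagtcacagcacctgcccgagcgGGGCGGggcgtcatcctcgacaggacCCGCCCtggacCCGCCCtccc
Galnt7: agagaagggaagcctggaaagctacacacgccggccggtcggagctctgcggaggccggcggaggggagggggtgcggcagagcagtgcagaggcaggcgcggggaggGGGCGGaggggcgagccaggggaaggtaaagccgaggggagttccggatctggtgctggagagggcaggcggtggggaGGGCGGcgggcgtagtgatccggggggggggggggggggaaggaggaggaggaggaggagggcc
The B3gnt3 window held 1 GC box, the Galnt6 window 3 and the Galnt7 window 2, and 32.7% of all 32817 promoter windows of this length held it. Of the 6 windows of named members that overlap no exon, the other 3, at a second Galnt6 start (GC content 59.6%) and at both Fut8 starts (36.4% and 37.6%), held no GC box and are not shown. Further motifs were searched on both strands, and none of their letters occurred in the 3 windows. The TATA box, searched as TATAAA, was held by 12.4% of all windows. The caudal-type homeobox letters TTTATG were held by 10.8%. The nuclear receptor element, searched as AGGTCA, occurred in 14% of windows and that of hepatocyte nuclear factor 1, searched as GTTAAT, in 6.4%. An E-box, CAGCTG, was in 13.0% of them, and no motif's letters contain those of another. GC content was 60.0% in the B3gnt3 window, 72.8% in that of Galnt6 and 73.6% in that of Galnt7, against a median of 52.4% over all windows. Of the 13 members named with their values, 8 were matched by symbol in the RefSeq promoter set.

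Along the villus 12 of the 26 tested members changed, 6 in each direction. St3gal1, B4galt6, Galnt6, B3gnt3, St3gal4 and B4galt1 rose toward the tip, and Gcnt3, Galnt12, St6galnac2, Fut8, B3gnt7 and Galnt7 fell. The test was the slope of log2 expression per zone in edgeR's quasi-likelihood model, with a Benjamini-Hochberg adjusted p under 0.05 over the 9328 genes tested. It called 44.9% of all tested genes (22.1% higher and 22.8% lower toward the tip), and 46.2% of the members, so the share of members called was near that of all genes. The median slope of the members was -0.013 per zone, and that of all tested genes -0.00465. Scaling by total UMIs in place of TMM moved the median slope of all genes to -0.0715 and gave 2 members higher and 11 lower, where it called 13% of all tested genes higher and 39.9% lower. No called member changed sign. Under that scaling St3gal4, B3gnt3, Galnt6 and B4galt1 kept an upward slope that no longer passed, while Galnt3, Galnt1, B3galt4, B4galt4 and St3gal6 were called lower. Without mouse 3 the count of members lower toward the tip was 3 (17.7% of all tested genes), with B3gnt7, Fut8 and Galnt7 no longer passing.

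**Figure D1:**
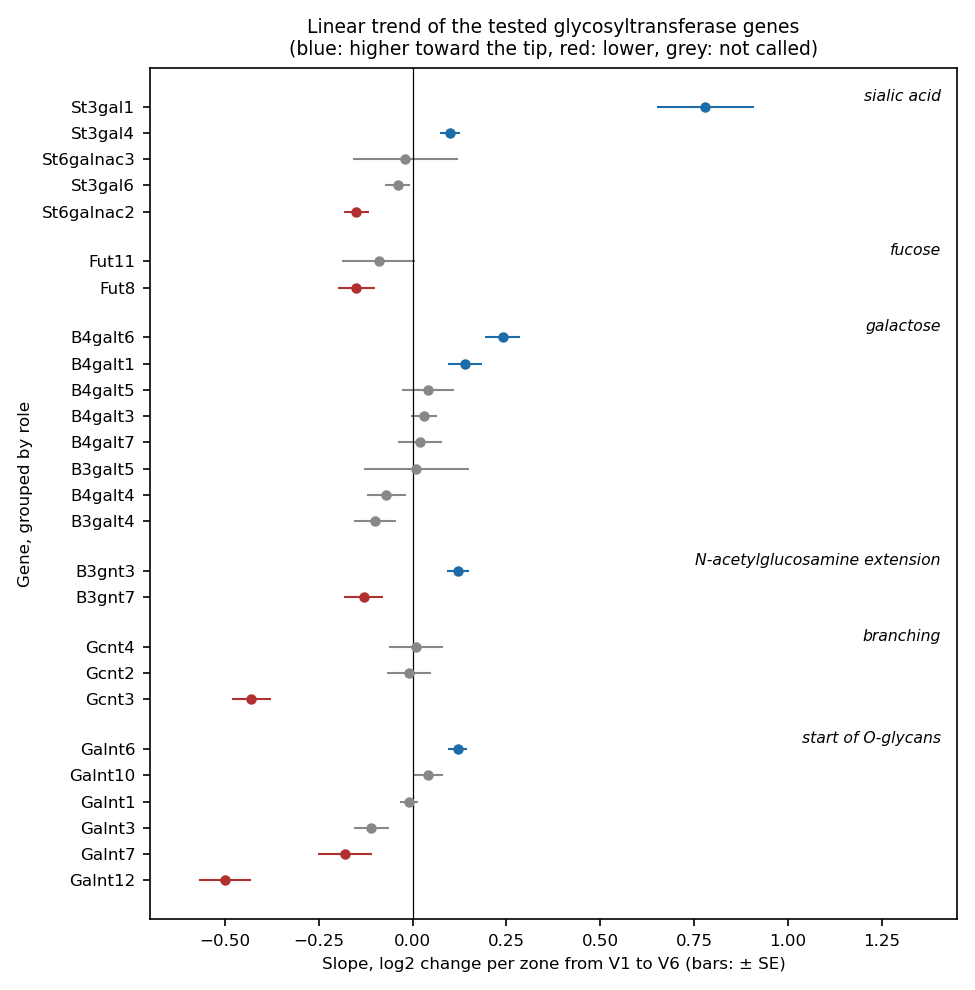
Slope of log2 expression per zone from V1 to V6, with its standard error, for the 26 tested members grouped by role; blue marks members higher toward the tip, red lower, grey not called. St3gal1 had the steepest rise (0.78 per zone), and Galnt12 (-0.50) and Gcnt3 (-0.43) the steepest falls.

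In bulk libraries, fewer cells of a type and less RNA per cell cannot be told apart, and markers of several cell types in these sorts moved with the zone. The share of mitochondrial transcripts also differed, at 2.59 to 4.57% of UMIs in V1, 5.85 to 11.1% in V3 and 7.13 to 9.72% in V6, and its part in the members' changes was not tested. All 20 goblet cell markers were in the table, 19 passed the filter and all 19 fell toward the tip. Their summed level was 75740.1 ± 25504.1 CPM in V1 (SD, n = 4; 50066.7 to 98263.8), 38412.5 ± 14485.5 in V2 and 12555.8 ± 5134.4 in V3. From V4 to V6 it was level, at 12601.6 ± 1418.5, 12421.3 ± 2848.5 and 12241.3 ± 2891.8 CPM. Of 14 enterocyte markers 13 rose, and 7 of 11 proliferation and crypt markers fell. All 4 tested of 10 enteroendocrine markers rose, with a summed level of 168.4 ± 19.8 CPM in V1 and 1504.6 ± 781.3 in V6. The 5 tested of 14 leukocyte markers also rose, and the sum of all 14 was 31.5 ± 25.8 CPM in V1 and 278.6 ± 21.4 in V6. The filter can keep a low marker through the 1 zone where it is high. Gzmb, for example, had 5 UMIs in V1 and 57 in V6, and the enteroendocrine marker Scg5 15 and 88. The direction of the low tested markers was thus partly set by the filter. Paneth cell markers summed to 13969.6 ± 6201.8 CPM in V1, 21914.1 ± 17509.2 in V5, the highest zone, and 9255.5 ± 3965.0 in V6, with a median slope of 0.016 over 8 markers, and of 4 tested tuft cell markers 1 rose. The goblet cell marker Retnlb was at 0 UMIs in V3 and V4. The part of any cell type in the levels of the members was not tested.

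**Figure D2:**
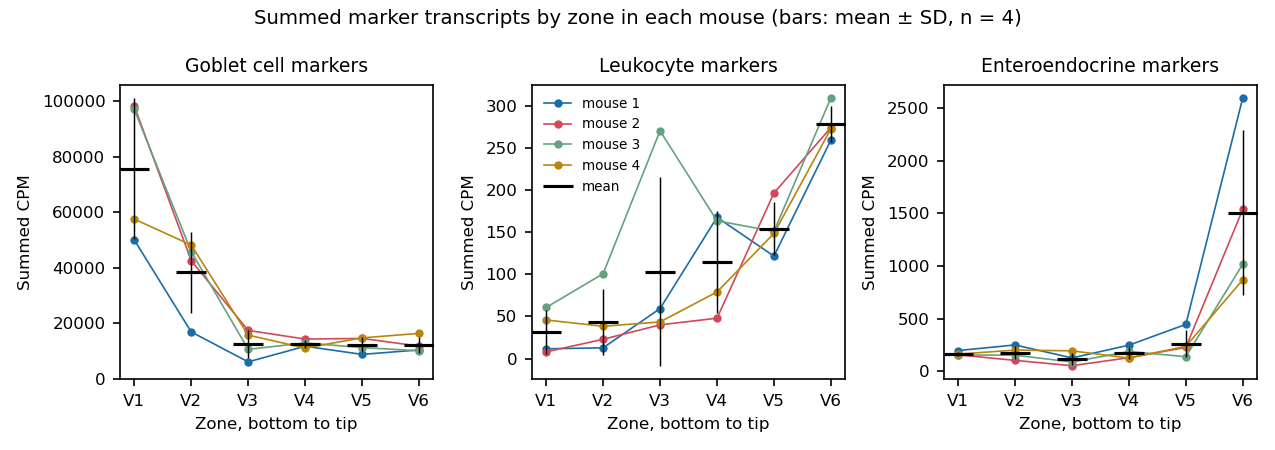
Summed CPM of goblet cell, leukocyte and enteroendocrine markers by zone, 1 line per mouse, with the mean and SD over 4 mice. Goblet cell markers dropped from V1 to V3 and were level from there, enteroendocrine markers were high in V6, and the V3 library of mouse 3 had a leukocyte sum (270.1 CPM) close to the V6 values.

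Among the enzymes that start O-glycans, Galnt12 and Galnt7 fell toward the tip, Galnt6 rose, and 3 of the 6 tested (of 8 members) did not pass. Galnt12 (chr4:47091909-47123070), one of the N-acetylgalactosaminyltransferases, was at 72.7, 112.7, 90.3 and 64.2 CPM in V1 of mice 1 to 4, and at 13.4, 13.4, 11.3 and 12.4 in V6. All V1 libraries were above all V6 libraries, and 3 of the 4 V3 libraries were already at 9.36 to 12.6 CPM. The slope was -0.50 ± 0.069 log2 per zone (SE, adjusted p = 4.49e-06), and V6 was 6.69-fold lower than V1 (log2 -2.74 ± 0.41, adjusted p = 2.28e-05). Galnt7, which adds to peptides that already carry N-acetylgalactosamine, was at 35.3, 29.2, 73.0 and 44.6 CPM in V1 and at 14, 22.7, 37.5 and 24.8 in V6. Every mouse was lower in V6 than in V1, but the groups overlapped, with V6 of mouse 3 above V1 of mice 1 and 2. Its slope was -0.18 ± 0.073 (adjusted p = 0.0477, and 0.00284 with mouse as a block). Without any 1 of the mice it no longer passed in fits with no mouse term (adjusted p 0.0613 to 0.145).

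Galnt6 (chr15:100691813-100729376), another enzyme of this first step, was the most abundant of them. It was at 118.1, 148.1, 168.3 and 127.2 CPM in V1, at 152.9, 166.2, 150.4 and 124.1 in V3 and at 220.8, 194.0, 239.1 and 196.1 in V6. V1 and V3 overlapped, and all V6 libraries were above every library of both. The slope was 0.12 ± 0.026 (adjusted p = 0.000683), and V6 was 1.51-fold above V1. Galnt3 was highest in V1 (34.5 ± 9.57 CPM, SD, n = 4), lowest in V3 (16.7 ± 5.09) and at 21.3 ± 4.23 in V6, a course that differed between zones (adjusted p = 0.0303) while its slope did not pass (-0.11 ± 0.046, adjusted p = 0.0531, 0.00793 with mouse as a block). Galnt1, second in abundance, was at 95.8 ± 14.2 CPM in V1 and 91.9 ± 18 in V6 (slope -0.01 ± 0.025, adjusted p = 0.675, and 0.0239 and lower by total UMI scaling), and Galnt10 at 54.8 ± 11.1 and 61.7 ± 10.4 (slope 0.04 ± 0.040, adjusted p = 0.377).

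Branching enzymes fell through a single gene, Gcnt3, while Gcnt2 and Gcnt4 did not pass and Gcnt1 and Gcnt7 were too low to test. Gcnt3 (chr9:70031496-70038088), the mucin-type enzyme that adds branching N-acetylglucosamine to O-glycan cores, was at 71.7, 100.7, 103.3 and 67.2 CPM in V1, at 15.1, 29.5, 17.3 and 37.9 in V3 and at 17.0, 33.6, 16.3 and 25.4 in V6. V1 lay above both other zones with no overlap, whereas V3 and V6 overlapped. The slope was -0.43 ± 0.052 (adjusted p = 6.15e-07), and V6 was 3.74-fold lower than V1 (log2 -1.90 ± 0.30, adjusted p = 3.83e-05). Gcnt2, which branches poly-N-acetyllactosamine chains, had a slope of -0.01 ± 0.058 (adjusted p = 0.893), and Gcnt4 one of 0.01 ± 0.072 (adjusted p = 0.895). With all 5 branching genes summed, the level was 114.1 ± 22.6 CPM in V1 and 55.1 ± 12.2 in V6.

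**Figure D3:**
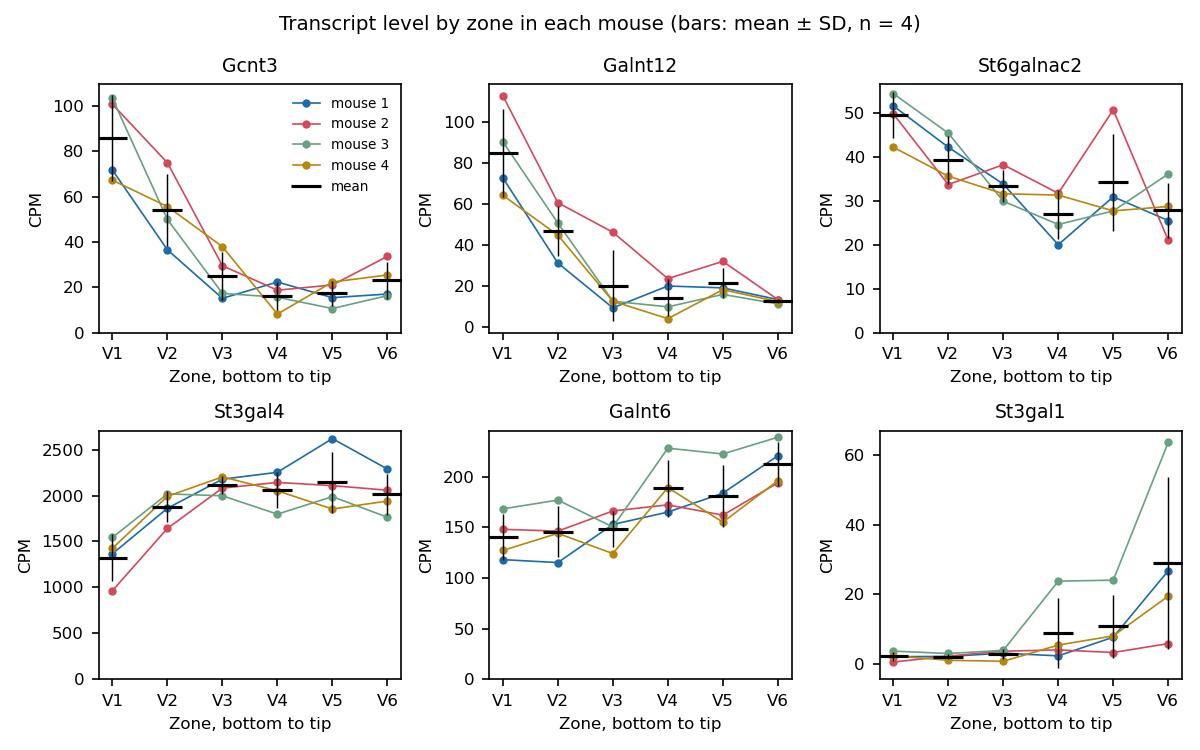
CPM by zone for Gcnt3, Galnt12, St6galnac2, St3gal4, Galnt6 and St3gal1, 1 line per mouse, with the mean and SD over 4 mice. Gcnt3 and Galnt12 dropped between V1 and V3, St3gal4 reached its upper level by V3, and St3gal1 was high in the upper zones, most in mouse 3 (63.7 CPM in V6) and least in mouse 2 (5.88).

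Chain extension by N-acetylglucosamine went both ways, with B3gnt3 up and B3gnt7 down. These were the only 2 of 6 B3gnt genes abundant enough to test. B3gnt3, which extends O-glycan cores, was at 43.7, 50.9, 58.8 and 51.1 CPM in V1 and at 86.4, 49.6, 79.2 and 74.9 in V6. In 3 of 4 mice V6 was above V1, and mouse 2 had nearly the same level in both. The slope was 0.12 ± 0.029 (adjusted p = 0.00192). B3gnt7, which lengthens poly-N-acetyllactosamine and keratan sulfate chains, was at 33.7, 57.8, 47.6 and 41.0 CPM in V1 and at 15.2, 23.5, 30.4 and 36.5 in V6. Every mouse was lower in V6, though V6 of mouse 4 was above V1 of mouse 1. The slope was -0.13 ± 0.052 (adjusted p = 0.0459, and 0.000764 with mouse as a block). With no mouse term it did not pass without the V1 library of mouse 2 (0.119), without mouse 2 (0.271) or without mouse 3 (0.0771).

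The galactosyltransferases that changed, B4galt6 and B4galt1, rose, and none of the 8 tested (of 10) fell, although B3galt4 (adjusted p = 0.013) and B4galt4 (0.0304) were lower by total UMI scaling. B4galt6, a lactosylceramide synthase of glycolipid chains, was at 18.4, 12.6, 28.5 and 20.2 CPM in V1 and at 64.5, 62.2, 53.0 and 33.9 in V6. The 2 zones did not overlap, and mouse 4 had the smallest rise. The slope was 0.24 ± 0.046 (adjusted p = 0.000192), and V6 was 2.68-fold above V1. B4galt1, which adds galactose to terminal N-acetylglucosamine, was at 37.9, 40.6, 54.4 and 57.7 CPM in V1 and at 62.7, 72.2, 79.9 and 113.4 in V6. All V6 libraries were above all V1 libraries. Its slope was 0.14 ± 0.045 (adjusted p = 0.018, and 9.8e-06 with mouse as a block). With no mouse term it did not pass without mouse 2 (0.0713) or without mouse 3 (0.0585). B4galt5, the other lactosylceramide synthase, was at 38.8 ± 20.7 CPM in V1 and 51.7 ± 9.78 in V6 (slope 0.04 ± 0.069, adjusted p = 0.631). B4galt3 had a slope of 0.03 ± 0.034 (adjusted p = 0.538). B3galt5, which makes type 1 chains, had one of 0.01 ± 0.140 (adjusted p = 0.979). The B3galt5 slope had a wide error in this fit with no mouse term, and its level differed between mice. It was at 2.11, 2.29, 11.1 and 23.8 CPM in V1 of mice 1 to 4 and at 6.08, 1.68, 9.19 and 28.0 in V6. With mouse as a block its slope was 0.0 (adjusted p = 0.995).

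Of the fucosyltransferases only Fut8 and Fut11 could be tested, and Fut8 fell. Fut8 puts fucose on the innermost N-acetylglucosamine of N-linked chains and is thus no mucin-chain enzyme. It was at 52.7, 45.2, 54.4 and 45.8 CPM in V1, at 23.9, 33.2, 18.1 and 31.6 in V3 and at 18.2, 43.7, 19.8 and 38.4 in V6. V6 split by mouse, with mice 2 and 4 not far below their V1 levels and mice 1 and 3 well below. The slope was -0.15 ± 0.050 (adjusted p = 0.0189, and 0.00057 with mouse as a block). With no mouse term it did not pass without mouse 1 (0.131), mouse 3 (0.0892) or mouse 4 (0.0563). V6 minus V1 was log2 -0.73 ± 0.30 (adjusted p = 0.0525, and 0.00273 with mouse as a block). Fut2, whose product is the secretor-type fucose of gut mucins, had 79 UMIs over all 24 libraries and Fut4 110, which was too few to test.

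Sialyltransferases held both the most abundant member and the steepest rise. St3gal4 (chr9:35046576-35119268), which puts sialic acid on galactose of N-acetyllactosamine ends, gave 47.5 to 75.9% (median 67.2%) of all UMIs of the 44 members in a library. It was at 1366.0, 963.6, 1543.5 and 1425.1 CPM in V1, at 2178.4, 2082.0, 1997.9 and 2204.1 in V3 and at 2289.8, 2058.9, 1764.0 and 1940.5 in V6. V1 was below V3 and V6 in every library, and V3 and V6 overlapped. The slope was 0.10 ± 0.026 (adjusted p = 0.00267) and V6 was 1.52-fold above V1 (adjusted p = 0.00321). Summed over all 44 members the level was 2375.4 ± 304.6 CPM in V1 and 3030.5 ± 174.0 in V6, and without St3gal4 it was 1050.9 ± 126.2 and 1017.2 ± 54.9.

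St3gal1 (chr15:67102875-67176830), which caps the galactose of unbranched O-glycan cores with sialic acid, had 332 UMIs in all, 15 in V1, 15 in V2, 18 in V3, 42 in V4, 71 in V5 and 171 in V6. It was at 2.11, 0.572, 3.71 and 2.38 CPM in V1, at 3.12, 3.69, 3.94 and 0.79 in V3 and at 26.8, 5.88, 63.7 and 19.5 in V6. V6 was above V1 and V3 in every mouse, and the tip libraries ranged from 5.88 CPM in mouse 2 to 63.7 in mouse 3. Mouse 3 was already at 23.8 CPM in V4 and 24.1 in V5, above V6 of mice 2 and 4, while mice 1, 2 and 4 were at 2.35, 4.06 and 5.45 in V4 and at 7.72, 3.31 and 8.09 in V5. The slope was 0.78 ± 0.13 (adjusted p = 4.26e-05) and V6 was 13.0-fold above V1 (log2 3.70 ± 0.73, adjusted p = 0.000488). The leukocyte sum was 31.5 ± 25.8 CPM in V1, 103.2 ± 111.6 in V3, 114.4 ± 60.2 in V4, 154.2 ± 31.0 in V5 and 278.6 ± 21.4 in V6. The enteroendocrine sum was 168.4 ± 19.8 CPM in V1, 116.6 ± 60.5 in V3, 173.5 ± 57.6 in V4, 262.5 ± 129.9 in V5 and 1504.6 ± 781.3 in V6. In V6 the leukocyte sum was 259.1, 273.8, 309.1 and 272.4 CPM in mice 1 to 4 and the enteroendocrine sum 2594.5, 1538.1, 1017.1 and 868.6. In V6 mouse 3 had the highest St3gal1 and the highest leukocyte sum. Mouse 1, second in St3gal1 (26.8 CPM), had the lowest leukocyte sum and the highest enteroendocrine sum. The leukocyte sums of mouse 3 were 270.1, 163.4 and 150.8 CPM in V3, V4 and V5, beside St3gal1 at 3.94, 23.8 and 24.1. None of the 14 leukocyte markers was at 0 in any zone, and Gzma went from 60 UMIs in V1 to 507 in V6, Ptprc from 3 to 11. Of the enteroendocrine markers Pax4 was at 0 UMIs in V3, V4 and V5. Isl1 had 22 UMIs in V1 and 20 in V6, Pax6 17 in both and Neurog3 5 and 1. Pcsk1n and Scg3, not tested either, were higher in V6 (19 and 86 UMIs, and 12 and 50), and the 4 tested markers rose. The part of these cells in the St3gal1 values was not tested.

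St6galnac2, which adds sialic acid to the first N-acetylgalactosamine of O-glycans, fell. It was at 51.6, 49.8, 54.4 and 42.2 CPM in V1 and at 25.5, 21.0, 36.1 and 28.7 in V6, with no overlap. The slope was -0.15 ± 0.034 (adjusted p = 0.00131), and V6 was 1.77-fold lower than V1. St3gal6 was at 34.5 ± 4.09 CPM in V1 and 29.7 ± 5.85 in V6 (slope -0.04 ± 0.034, adjusted p = 0.350, and 0.0078 and lower by total UMI scaling), and St6galnac3 had a slope of -0.02 ± 0.140 (adjusted p = 0.932). The 14 tested members that did not pass had slopes from -0.11 to 0.04 and adjusted p from 0.0531 to 0.979.

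From V1 to V3, the lower villus, 7 of 26 members passed (26.9%, against 19.8% of all tested genes). Galnt12 (log2 -2.06 ± 0.39, adjusted p = 0.000676), Gcnt3 (-1.79 ± 0.30, 0.000167), Galnt3 (-1.04 ± 0.27, 0.00973), Fut8 (-0.89 ± 0.30, 0.037) and St6galnac2 (-0.56 ± 0.20, 0.046) fell. B4galt6 (1.01 ± 0.28, 0.0127) and St3gal4 (0.68 ± 0.15, 0.00284) rose. Of all tested genes 8.32% fell and 11.5% rose over this stretch. With mouse as a block 5 members rose in place of 2, B3gnt3 (adjusted p = 0.0301), B4galt1 (0.0143) and B4galt5 (0.0365) being added, and 20% of all tested genes rose in that fit. Galnt12, Gcnt3 and St3gal4 passed without any 1 mouse, in fits with no mouse term. St6galnac2 did not pass without mouse 1 (0.158), 3 (0.182) or 4 (0.136), nor Fut8 (0.175, 0.122 and 0.101). Nor did B4galt6 without mouse 1 (0.1) or 4 (0.0790), or Galnt3 without mouse 1 (0.0833). With mouse as a block and all mice, adjusted p was 0.0123 for St6galnac2, 0.000879 for Fut8, 0.00025 for B4galt6 and 9.66e-05 for Galnt3. Without the V1 library of mouse 2, 1 member rose and 2 fell (7.48% and 4.65% of all tested genes).

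From V3 to V6, where goblet cell markers were level, St3gal1 was the only member that passed (log2 3.27 ± 0.72, adjusted p = 0.00751, 9.67-fold), 3.85% of the members against 3.13% of all tested genes (3.07% higher and 0.0643% lower). With mouse as a block its adjusted p was 2.07e-07. With no mouse term it did not pass without mouse 1 (adjusted p = 0.1) or mouse 4 (0.0948). Galnt6 was at log2 0.52 ± 0.16 (adjusted p = 0.0762, and 0.0028 with mouse as a block). Gcnt3 was at -0.11 ± 0.32 (adjusted p = 0.936) and St3gal4 at -0.07 ± 0.15 (0.911), with no change detectable beyond these errors. Galnt12 was at -0.69 ± 0.44 (adjusted p = 0.579). Slopes fitted over V2 to V6 alone called 5 of the 12 members, namely St3gal1, Galnt6 and B3gnt3 higher and Gcnt3 and Galnt12 lower, where 9.61% of all tested genes were higher and 2.85% lower. Over V3 to V6 alone the slope called St3gal1 (adjusted p = 0.0487) and 2.59% of all tested genes.

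**Figure D4:**
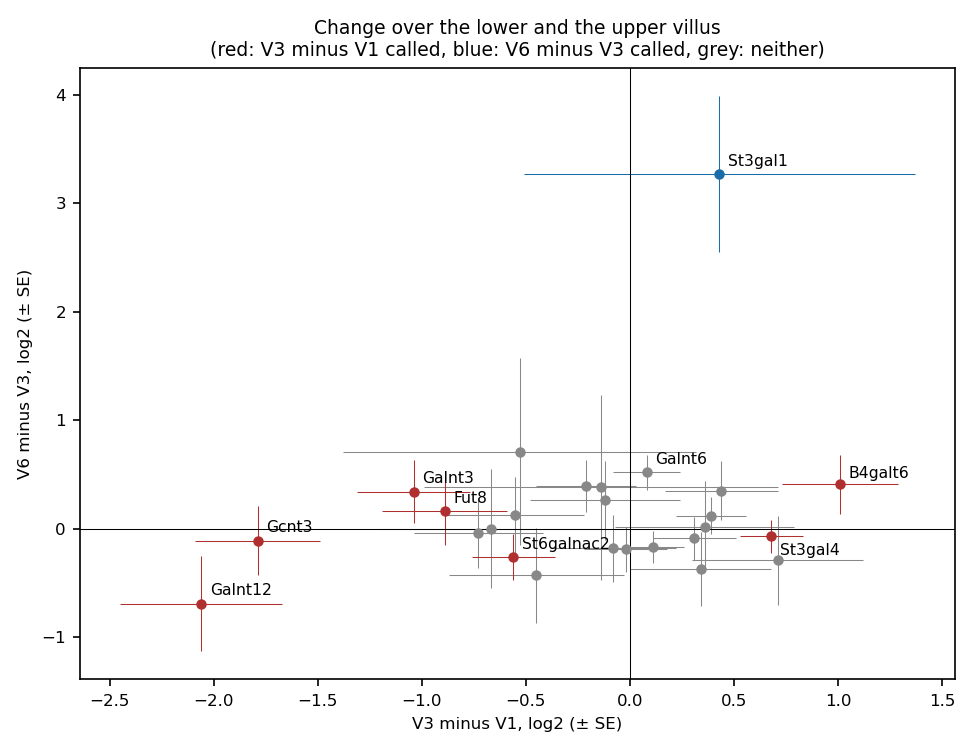
Log2 change from V1 to V3 (horizontal) and from V3 to V6 (vertical), with standard errors, for the 26 tested members; red marks members called over the lower stretch, blue over the upper, grey neither. Galnt12 and Gcnt3 lie far to the left, Gcnt3 close to the horizontal line and Galnt12 lowest of all members (-0.69), and St3gal1 stands alone at the top.

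From V1 to V3 the goblet cell sum fell from 75740.1 to 12555.8 CPM. Over the same zones Gcnt3, Galnt12, Galnt3, Fut8 and St6galnac2 fell, while B4galt6 and St3gal4 rose. A further fit of the slope had a goblet score (mean log2 CPM of 19 goblet cell markers) and mouse as covariates. Members called lower on the slope were there at 0.01 (Gcnt3), -0.01 (Galnt12), -0.17 (St6galnac2), 0.02 (Fut8), -0.07 (B3gnt7) and 0.06 (Galnt7). Those called higher were at 0.57 (St3gal1), 0.19 (B4galt6), 0.17 (Galnt6), 0.15 (B3gnt3), 0.14 (St3gal4) and 0.18 (B4galt1). None of the 12 members passed in that fit (adjusted p 0.243 to 0.991), which called 1.89% of all tested genes in place of 44.9%. The score itself followed the zones, at 8.354 to 9.201 in V1 and 5.938 to 7.02 in V3. The fit therefore cannot tell a part of goblet cells from that of zone. The part of goblet cells in these levels was not tested.

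Between the ends of the axis, V6 and V1, 11 of 26 members passed (42.3%, against 38.8% of all tested genes), the 6 that rose along the axis and Gcnt3, Galnt12, St6galnac2, Galnt3 and B3gnt7 lower in V6. Without the V1 library of mouse 2, 3 members were lower (13.3% of all tested genes), B3gnt7 (adjusted p = 0.152) and Galnt3 (0.167) no longer passing, and without mouse 3 also 3 (15.2%). Any difference among the 6 zones was called for 9 members (34.6%, against 27.4% of all tested genes), and for 3 without mouse 1 (14.7% of all tested genes) and 5 without mouse 4 (15.5%). All 12 members called on the slope had the same slope direction in 4 of 4 mice, the same mice on which they were called. B3galt4 and Galnt3, not called, also fell in 4 of 4. The flattest slopes of a single mouse were -0.01 for Fut8 and 0.02 for St3gal4.

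The 18 members that failed the filter had 1 to 135 UMIs over all 24 libraries. The highest were B3galt6 (135), Galnt11 (129), Fut4 (110), St3gal3 (83), Fut2 (79), Galnt5 (77) and B3gnt6 (63), the core 3 synthase of gut mucins. Gcnt1 had 36, B3gnt5 20, Fut7 and St6galnac4 17 each, B3gnt9 12 and Fut1 9. B3gnt8 (7), St6gal1 and St6galnac6 (6 each), Gcnt7 (3) and B4galt2 (1) were close to absent at this depth. Galnt5 had 34 of its UMIs in V1 and 10 in V6, with no test. Fut1 and Fut2 lie 27532 bases apart on chromosome 7, B4galt2 and St3gal3 48667 bases apart on chromosome 4, and St6galnac4 and St6galnac6 11 bases apart on chromosome 2. Whether the authors' counting used strand is not given in the sources used here, and exons of St3gal4, Galnt6, Galnt7, Fut8, B3gnt7 and St6galnac2 overlap a gene on the opposite strand, from which their reads then cannot be told apart.

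Genes around these enzymes moved in both directions too. Muc2, the secreted gel-forming mucin and itself one of the goblet cell markers, fell from 2418.8 ± 845.8 CPM in V1 to 348.0 ± 92.1 in V6 (slope -0.57 ± 0.077, adjusted p = 5.09e-06). Muc13, a membrane mucin of the brush border, rose from 1096.1 ± 198.7 to 2105.9 ± 174.0 (slope 0.18 ± 0.035, adjusted p = 0.000283), and Muc3 from 80.3 ± 16.9 to 593.7 ± 67.5 (slope 0.58 ± 0.041, adjusted p = 1.87e-10), while the row named Muc3a fell (slope -0.42 ± 0.052, adjusted p = 7.86e-07). Of 7 tested genes on the mucin list 3 rose and 3 fell, beside 22.1% and 22.8% of all tested genes. Cdhr5 was the other one that rose and Cd164 the other one that fell (slope -0.09 ± 0.032, adjusted p = 0.0296). Neither of them has a Muc symbol. Muc4 did not pass (0.19 ± 0.081, 0.0539). Muc3 and Muc3a are related genes between which reads may be split, so both are uncertain.

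Of 24 tested genes of nucleotide sugar supply and Golgi transport 12 fell and 6 rose, a median slope of -0.063, beside 22.8% and 22.1% of all tested genes. Nans, which makes the sialic acid precursor, fell from 125.6 ± 24.4 CPM in V1 to 60.0 ± 8.81 in V6 (slope -0.19 ± 0.029, adjusted p = 1.01e-05), and Gmds, which acts in the making of GDP-fucose, from 339.9 ± 20.4 to 210.4 ± 95.4 (slope -0.15 ± 0.047, adjusted p = 0.0128). Npl, which breaks sialic acid down, rose from 2.37 ± 1.47 to 24.3 ± 10.5 CPM (slope 0.67 ± 0.086, adjusted p = 1.55e-06), and Uap1l1 from 42.6 ± 12.9 to 153.6 ± 33.6 (slope 0.38 ± 0.033, adjusted p = 3.97e-09). By total UMI scaling the counts were 14 lower and 5 higher, beside 39.9% and 13% of all tested genes.

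Other glycan-chain enzymes gave 3 higher and 4 lower of 14 tested, beside 22.1% and 22.8% of all tested genes. By total UMI scaling they gave 1 higher and 7 lower, beside 13% and 39.9%. Ugcg, which makes the glucosylceramide that lactosylceramide synthases extend, rose from 34.3 ± 6.89 to 126.5 ± 34.1 CPM (slope 0.35 ± 0.038, adjusted p = 1.39e-07). C1galt1c1, the chaperone of the enzyme that adds galactose to the first N-acetylgalactosamine, fell from 52.1 ± 11.4 to 26.5 ± 6.64 (slope -0.18 ± 0.038, adjusted p = 0.000586). B4galnt1, the most abundant of this list, fell from 314.9 ± 10.5 to 244.7 ± 20 (slope -0.07 ± 0.024, adjusted p = 0.0303), and Mgat1, which starts complex N-linked chains, rose from 52.0 ± 6.36 to 79.7 ± 7.23 (slope 0.12 ± 0.026, adjusted p = 0.000809). Among 8 tested genes of glycan sulfation 2 rose and 2 fell, beside the same 22.1% and 22.8% of all tested genes. Papss2, which makes the sulfate donor, rose from 100.3 ± 24.8 to 231.3 ± 29.6 CPM (slope 0.20 ± 0.027, adjusted p = 3.6e-06) and Gal3st2, which sulfates galactose, from 56.7 ± 9.54 to 174.9 ± 44.4 (slope 0.30 ± 0.035, adjusted p = 3.05e-07). Chst4, a sulfotransferase for N-acetylglucosamine, fell from 66.3 ± 15.1 to 23.2 ± 8.97 (slope -0.31 ± 0.058, adjusted p = 0.000178).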

How the data were processed

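RNA was measured in 24 libraries, 1 for each of 6 villus zones of 4 mice. The deposited values are UMI counts of each gene in each library, made by mcSCRB-seq per the labels' protocols and not normalized. Per the submitters' processing notes the tool was bcl2fastq 2.15.0.4 and the genome GRCm38. How reads were aligned, annotated and filtered: not given in the sources used here. Per the file headers, V1 of mouse 2 carries the index of the mouse 1 libraries; index and mouse otherwise coincide and cannot be told apart.

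Of 17811 genes, 131 had no count, and 9328 were kept by edgeR's filterByExpr (4.0.16, in R 4.3.3; grouped by zone, at least 10 counts in enough libraries and 15 in total). TMM factors ran from 0.833 to 1.2. One quasi-likelihood fit over all libraries, with a coefficient for each zone and 18 residual degrees of freedom, gave the slope over equally spaced zones, V6 minus V1, V3 minus V1, V6 minus V3 and the joint test of all zones. P-values were adjusted by Benjamini-Hochberg over the genes kept. The mice are separate animals, so n = 4. No library was a copy of another (chi-square per degree of freedom 3.35 to 27.5 over 36 pairs within zones).

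The 6 libraries of a mouse deviated from the zone means together (60 of 60 pairs over 0.1, lowest r 0.184, mean 0.422), so mouse pairs the zones; a fit that adds mouse as a block left 15 residual degrees of freedom. Alternatives further used DESeq2 1.42.0, limma 3.58.1 (voom), other scalings and zone ranges, no filter, thinning to 806541 UMIs, a goblet score, and fewer libraries.

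The members, gene lists and tests were chosen with earlier results of these data known. Members were named with values where called on the slope (up to 4 per role by adjusted p), most abundant in their role, or called only in the joint test. Of each pathway list, up to 3 called genes and the most abundant one were eligible. Coordinates are from GENCODE on GRCm38. In simulated counts (9196 genes) the slope test found 57.6% of 99 genes given 0.2 per zone and 100% of 100 given 0.4, with 9 false calls. Few genes were given a slope there and no mouse effect was drawn, unlike in the data. The share found in the data can therefore differ. Tables and figures were made in Python 3.11.15 (numpy 2.4.6, pandas 2.3.3, matplotlib 3.10.9).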

Additional observations from a re-analysis of the deposited data

Results flagged for a closer look

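In 78 groups of 4 libraries (13 members, 6 zones), 5 had a single library far from the others, by Dixon's test at the 95% level. Chance flags about 1 in 20 such groups. B3gnt7 was at 40.3 CPM in V3 of mouse 4, with the other mice at 22.8 to 23.4. Galnt12 was at 46.2 CPM in V3 of mouse 2, with the others at 9.36 to 12.6. Galnt3 was lowest in V6 of mouse 4, at 15 CPM against 22.5 to 24. St3gal1 was at 23.8 CPM in V4 of mouse 3, with the others at 2.35 to 5.45. St6galnac2 was at 50.7 CPM in V5 of mouse 2, with the others at 27.7 to 30.9.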

How the results depend on the processing

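All 12 members called on the slope kept their direction and their call with DESeq2 size factors, the DESeq2 test, the replicate block and thinned counts. Limma-voom kept 11 and no filter 10. Slopes that called 6 members higher and 6 lower gave 3 and 2 over V2 to V6 (9.61% and 2.85% of all genes) and 1 and 0 over V3 to V6 (2.57% and 0.0231%). Over V3 to V6 with the replicate block, a setting chosen after seeing the data, they gave 2 and 0 (6.79% and 0.868%). With the goblet score and the replicate block they gave 0 and 0 (1.55% and 0.332%), and by total UMI scaling 2 and 11 (13% and 39.9%). For V6 minus V1, total UMI scaling, which moved the median of all genes to -0.339, gave 2 higher and 8 lower (6 and 5 with TMM; 12.3% and 33.3% of all genes), and no filter gave 3 lower (8.64% of all genes). For V3 minus V1 the replicate block gave 5 higher in place of 2 (20% of all genes). For V6 minus V3 the replicate block (7.27% of all genes) and the DESeq2 test (3.73%) gave 2 higher in place of 1. The replicate block, which pairs zones by mouse, ended no member's call. Beside those above it added Galnt3 on the slope, Fut8 and Galnt7 (adjusted p = 0.0138) for V6 minus V1, B3gnt7 for V3 minus V1, and B3gnt7, B4galt1 and Fut8 in the joint test. The block also raised the share of all genes called. It gave 6 members higher and 7 lower on the slope (27.6% and 27.8% of all genes) and for V6 minus V1 (26.7% and 24.7%). For V3 minus V1 it gave 6 lower (17.6%), and in the joint test 12 of 26 members (48.6%).

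Fits without 1 mouse, or without the V1 library of mouse 2 (chosen after seeing the data), had no mouse term. In them the slope called 5 to 6 members higher and 3 to 5 lower, beside 16.3 to 20.1% and 14 to 19.1% of all genes. V6 minus V1 called 4 to 6 higher and 3 to 5 lower (13.6 to 17.4% and 10.6 to 15.7% of all genes). V3 minus V1 called 1 to 2 higher and 2 to 5 lower (5.74 to 10.2% and 2.84 to 7.35%). V6 minus V3 called 0 to 1 higher (1.46 to 3.13%), and the joint test 3 to 8 (14.7 to 21.9%).

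Slopes changed sign for Fut8 (0.06 over V3 to V6 with and without the block, 0.02 with the goblet score), St3gal4 (-0.02 over V3 to V6, with and without the block), Galnt7 (0.06) and Gcnt3 (0.01, both with the goblet score). Fewer zones enter the shorter slopes, and for the other settings the cause was not tested. Slopes of 0.2 were often missed in the simulation, whose setting differed from the data, and the 18 members not tested had 135 UMIs or fewer in all.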
